A study of Mus musculus with 10 samples.

Results

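In this series, 40 genes of the cell cycle and of DNA replication were followed in the aortas of 10 male mice, 5 without ApoE and 5 without both ApoE and IL-17. The members were taken from a list of 40 symbols and found by symbol among the 22180 genes of the array. In all 38 were measured, each by the probe set with the highest mean over the 10 arrays. Ccne2 shares its only probe set with a second gene and Ccnb1 has no probe set under its symbol alone, so both were left out. Of the 38, 12 act at the start of S phase or in DNA synthesis, called S phase members here, and 26 act mainly in G2 and mitosis or mark dividing cells, called mitotic members.

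Apolipoprotein E lets the liver take up lipoproteins, and its loss raises blood cholesterol. The ApoE knockout group had the ApoE deletion alone. The ApoE/IL-17 double knockout group was bred by crossing the IL-17 deletion, which came from another laboratory's colony, into ApoE-deficient mice, so both groups lack ApoE in all cells. Each mouse was on a C57BL/6 background (labelled C57B/L6 for the double knockout), was fed high fat food from 8 weeks of age, for 3 weeks, and gave its aorta at 11 weeks. Whole aortas were profiled, and in such samples fewer cells of a type and less RNA per cell cannot be told apart. The protocol text of the ApoE knockout arrays describes a colony with wild-type and caspase-1-deficient mice and does not mention IL-17, so a difference in time or run between the groups cannot be told apart from the genotype. The comparison asks what the added loss of IL-17 does in the ApoE-deficient aorta. The number of arrays limits the precision.

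Cells that divide switch on genes in waves. E2F factors and cyclin E open S phase, when the MCM helicase, the clamp PCNA and the enzymes of nucleotide supply copy the genome. Genes of G2 and mitosis follow, under the factors B-Myb and FoxM1 and the MuvB complex, and they encode cyclins A and B, mitotic kinases, spindle motors and the machinery that pulls chromosomes apart. The healthy artery wall turns over slowly, and most of its smooth muscle and endothelial cells are quiescent.

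Promoter sequence was not used to choose the members, and its motifs are given here as a description. RefSeq promoter windows of GRCm38.p6, from 250 bases before to 50 after a gene's start, were at hand for 32 of the 40 genes, with 2 windows for Mcm7 and for Prc1. The letters TTTGAA, the core of the cell cycle genes homology region that MuvB binds, stood on either strand in 17 of 23 mitotic windows (73.9%) and in 1 of 11 S phase windows (9.09%), that of Mcm2, against 17.9% of all 32851 windows. CCAAT, the site of factor NF-Y, stood in 19 of 23 mitotic and 8 of 11 S phase windows, against 37.4% of all. The 3 E2F forms searched (TTTGGCGC, TTTCGCGC and TTTCCCGC) were in 3 of 11 S phase windows and in 1 of 23 mitotic ones, against 1.84% of all. A match is a description of the window, not a site in use.

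The following 6 upstream stretches show this layout, each read 5′ to 3′ toward the gene, with every match on either strand in capitals. Mki67 (chr7:135716462-135716577, minus strand), Ube2c (chr2:164769691-164769915, plus strand) and Ccnb2 (chr9:70421561-70421731, minus strand) were among the members called lower, and Cdk1 (chr10:69352913-69353130, minus strand) was not called. In the Ccnb2 stretch 3 CCAAT boxes begin at positions -87, -54 and -21 from the start, and a further TTTGAA lies past the end of the stretch. Mcm2 (chr6:88898835-88898965, minus strand) is the S phase member with TTTGAA, and Mcm5 (chr8:75109346-75109501, plus strand) carries overlapping E2F matches on both strands. The promoter of Nusap1, the member with the largest change, held none of these letters.
Mki67: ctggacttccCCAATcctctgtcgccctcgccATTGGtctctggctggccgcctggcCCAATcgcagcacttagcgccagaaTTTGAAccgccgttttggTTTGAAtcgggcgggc
Ube2c: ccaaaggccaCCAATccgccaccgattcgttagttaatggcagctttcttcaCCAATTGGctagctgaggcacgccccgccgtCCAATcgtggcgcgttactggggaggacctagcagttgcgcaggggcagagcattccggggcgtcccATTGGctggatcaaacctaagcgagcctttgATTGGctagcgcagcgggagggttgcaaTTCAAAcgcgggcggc
Ccnb2: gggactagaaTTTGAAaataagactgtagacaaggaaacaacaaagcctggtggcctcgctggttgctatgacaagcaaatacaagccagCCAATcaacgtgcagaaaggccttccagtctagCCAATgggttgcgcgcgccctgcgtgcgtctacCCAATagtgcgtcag
Cdk1: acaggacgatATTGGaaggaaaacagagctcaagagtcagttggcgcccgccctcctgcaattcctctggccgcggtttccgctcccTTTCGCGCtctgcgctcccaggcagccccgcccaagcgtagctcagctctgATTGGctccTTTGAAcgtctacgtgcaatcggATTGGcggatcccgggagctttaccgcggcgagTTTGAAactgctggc
Mcm2: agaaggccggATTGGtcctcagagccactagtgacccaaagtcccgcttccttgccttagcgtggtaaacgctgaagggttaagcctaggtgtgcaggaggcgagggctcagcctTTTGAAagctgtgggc
Mcm5: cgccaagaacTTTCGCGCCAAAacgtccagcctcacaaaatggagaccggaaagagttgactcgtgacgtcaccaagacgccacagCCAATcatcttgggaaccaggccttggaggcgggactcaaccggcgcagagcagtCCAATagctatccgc

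Of the 38 members measured, 12 were lower in the double knockout and none was higher (limma, Benjamini-Hochberg adjusted over all genes). Among all genes 7.53% were called lower and 22.8% higher. At an unadjusted p of 0.05 the number of members higher was 0 too by limma, against 31% of all genes, and a Welch test per gene with the same adjustment also gave 0. The lower members were 10 of 26 mitotic genes (Nusap1, Ube2c, Kif23, Mki67, Ccnb2, Melk, Ccna2, Bub1b, Tpx2 and Birc5) and 2 of 12 S phase genes (Mcm2 and Rrm2). The median log2 change, double knockout minus ApoE knockout, was -0.42 for the mitotic and -0.14 for the S phase members, against 0.098 for all genes. For 6 members the groups did not overlap, with all double knockout values the lower ones, which holds for 4.8% of all genes, and for no member did the reverse hold, against 15.6%. The change was below 0 in 34 of 38 members, against 36.1% of all genes. These shares of all genes are not at a like level. Both means were below 5.80, a background level defined below, in 8075 of 22180 genes and in 5 of 38 members. The scale of the arrays differed between the groups mostly at low values. Over all probe sets the lower quartile was 4.49 to 4.53 in the ApoE knockout and 4.72 to 4.83 in the double knockout. The upper quartile was 7.55 to 7.62 and 7.59 to 7.66. The median change of all genes was -0.11 when every array had its own median subtracted (centring) and -0.018 after quantile normalization. Of called genes 22.8% and 44.4% were higher there, in place of 75.1%. The mitotic medians were then -0.62 and -0.55 and the S phase medians -0.34 and -0.20. Centring moves all genes alike, the bright ones included, so it leaves the difference between the medians as it was.

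**Figure D1:**
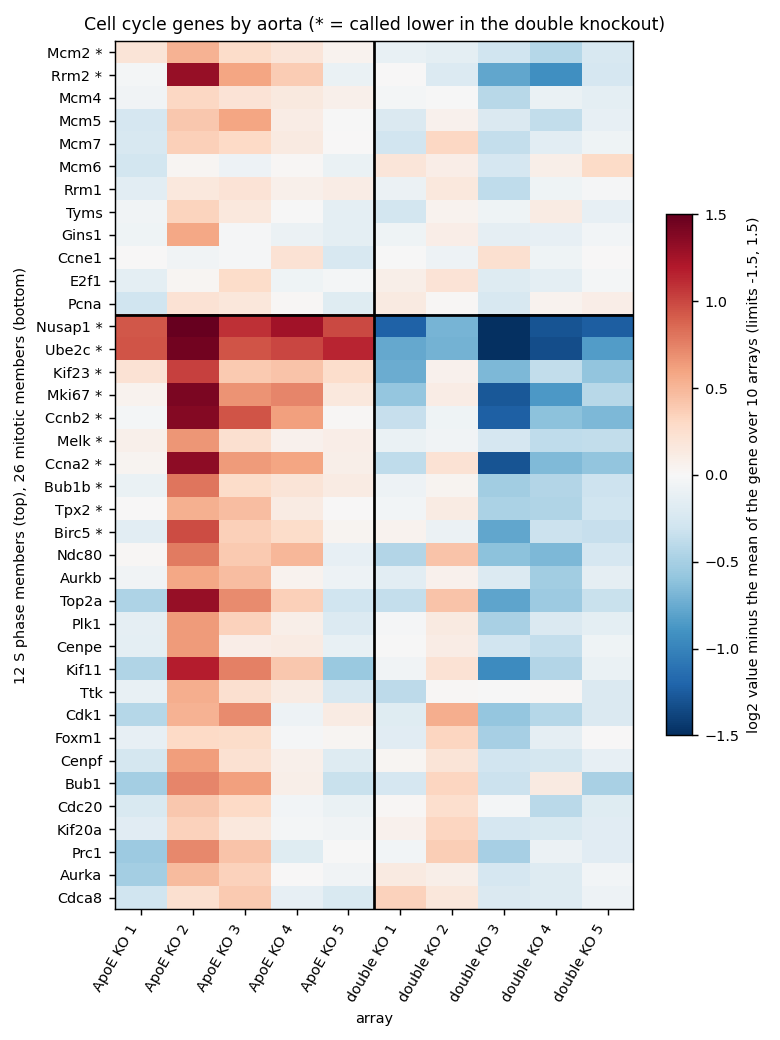
Log2 value of each of the 38 measured members in each of the 10 aortas, minus the mean of that gene over the 10 arrays, with S phase members above and mitotic members below the line and members called lower marked by an asterisk. ApoE knockout replicate 2 is the darkest red column, and Nusap1 and Ube2c are red in all 5 ApoE knockout and blue in all 5 double knockout aortas.

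The ApoE knockout aortas were not alike. ApoE knockout replicate 2 was the highest of the 10 arrays for 30 of the 38 members, against 9.32% of all genes. Replicates 2, 3 and 4 were the 3 highest arrays for 12 members, against 2.55% of all genes, and replicate 1 or 5 was the lowest ApoE knockout array for 37 members, against 44.4%. The mean log2 level of the mitotic members was 6.49, 7.40, 7.06, 6.84 and 6.60 in ApoE knockout replicates 1 to 5 and 6.37, 6.70, 5.96, 6.15 and 6.26 in the double knockout. Replicates 1 and 5 of the ApoE knockout thus lay below double knockout replicate 2. The mean of the S phase members was 7.42, 7.89, 7.76, 7.63 and 7.48 in the ApoE knockout and 7.48, 7.58, 7.28, 7.36 and 7.48 in the double knockout, so that the groups overlapped.

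Markers of thymocytes, the developing T cells of the thymus, stood apart in the same 3 aortas. The mean of 12 measured thymocyte markers of 15 listed was 8.39, 7.88 and 7.64 in ApoE knockout replicates 2, 3 and 4, and 6.37 and 5.77 in replicates 1 and 5. In the double knockout it ran from 5.69 to 6.75, highest in replicate 1. By limma with all arrays 2 of the 12 were lower, where 7.53% of all genes were, and none was higher. Of these markers 11 had ApoE knockout replicates 2, 3 and 4 as their 3 highest arrays. Dntt, the terminal transferase of antigen receptor joining, was at 8.76, 8.43 and 7.79 there and at 5.74 and 5.10 in replicates 1 and 5. Rag2, of the recombinase that joins receptor segments, was at 7.44, 6.61 and 6.35 there and at 4.48 and 4.13 in the other two. The remaining marker, Ptcra, lay between 6.16 and 6.61 in every aorta. Of 9 measured T cell markers of 12 listed, 7 were lower in the double knockout, with array means of 6.43 to 8.14 in ApoE knockout aortas and 5.93 to 6.76 in double knockout ones. With these 3 arrays left out none of the T cell markers was called by limma, and their median change was -0.28 in place of -1.04. The 3 were the highest arrays for all 9 T cell markers. Leaving them out therefore had to make the changes less negative, so this fit is no check on them. The mean of 8 measured thymic epithelium genes was 5.98, 6.13, 6.09, 6.08 and 6.08 in ApoE knockout replicates 1 to 5. It was 6.13 to 6.31 in the double knockout. None of the 8 had ApoE knockout replicates 2, 3 and 4 as its 3 highest arrays. Of these genes, Foxn1, Psmb11 and Prss16 had means below 5.80 in both groups, Tbata in 1, and Ccl25, Ly75, Aire and Krt8 in neither. That value is the 95th percentile over 1432 smell, pheromone and taste receptor genes by mean level, genes of sensory cells, and serves here as a background level. The part of these cells in the changes of the members was not tested. The members called are given below with all 10 arrays and also without ApoE knockout replicates 2, 3 and 4, a set chosen after the data were seen.

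The aorta's own markers were well above that background, with smooth muscle marker means of 10.72 to 11.25 in the ApoE knockout and 11.17 to 11.26 in the double knockout, lowest in ApoE knockout replicate 2. Macrophage markers, 12 of 12 measured, ranged from 9.31 to 9.68 and from 8.93 to 9.75, with 1 lower. In the double knockout they were highest in replicate 2 and lowest in replicate 3. Among the members, 29 of 38 were highest in replicate 2 of that group and 25 lowest in replicate 3, against 21.5% and 22.4% of all genes. Endothelial marker means of the double knockout had this order too, from 9.55 in replicate 3 to 9.88 in replicate 2. Natural killer marker means of that group ran from 5.45 in replicate 3 to 5.77 in replicate 2. Fibroblast, cardiac muscle and granulocyte precursor means were also highest in replicate 2, but were not lowest in replicate 3. Here, too, a part of any of these cells in the order of the arrays was not tested. Of the other marker lists, genes lower in the double knockout were 8 of 8 for platelets, 7 of 9 for neutrophils, 5 of 9 for B cells, 5 of 8 for mast cells, 5 of 8 for natural killer cells, 2 of 10 for endothelium and 1 of 5 for Schwann cells, where 7.53% of all genes were lower. With ApoE knockout replicates 2, 3 and 4 left out these counts were 8, 3, 3, 1, 0, 0 and 0. Genes higher were 3 of 10 for smooth muscle, 3 of 9 for fibroblasts, 3 of 7 for cardiac muscle, 2 of 10 for granulocyte precursors, 2 of 8 for natural killer cells, and 1 each for thymic epithelium (of 8), germinal center (of 4), brown adipocytes (of 7), mast cells (of 8) and Schwann cells (of 5). With 22.8% of all genes higher, most of these shares lay near or below the background. With the 3 arrays left out 1 fibroblast and 1 granulocyte precursor gene were called higher, where 4.25% of all genes were. Plasma cell, white adipocyte and skeletal muscle genes had no call by limma, and at an unadjusted p of 0.05 they had 1, 1 and 0 genes lower and none higher.

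**Figure D2:**
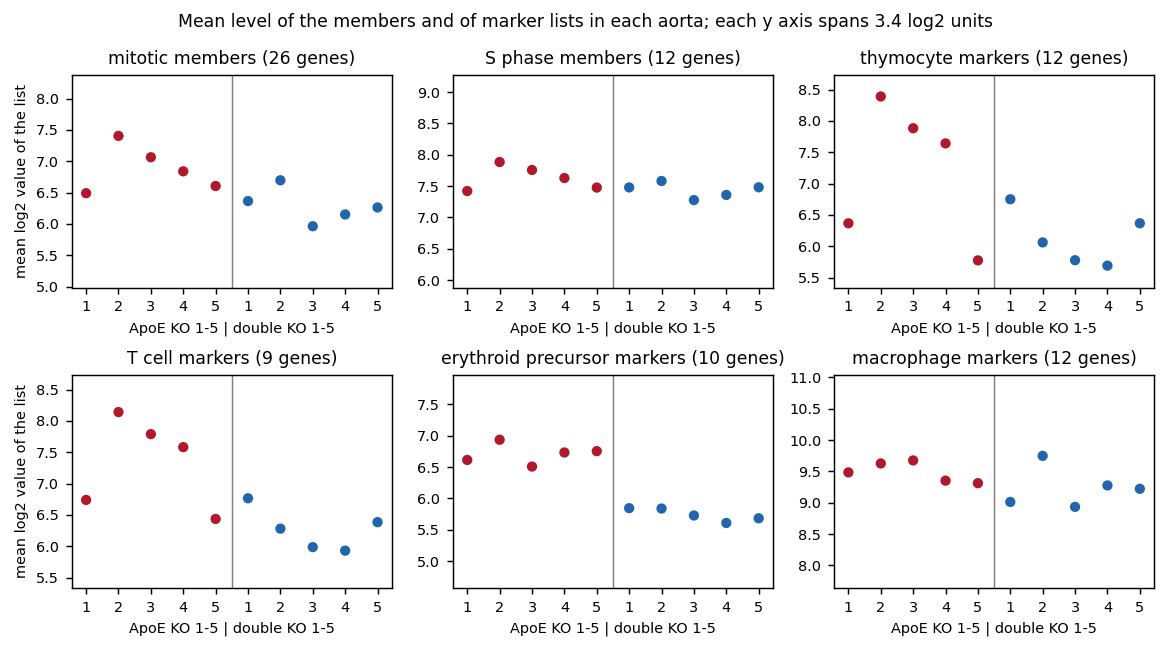
Mean log2 value of the mitotic members, the S phase members and 4 marker lists in each aorta, ApoE knockout replicates 1 to 5 in red and double knockout replicates 1 to 5 in blue. Thymocyte markers are at 8.39, 7.88 and 7.64 in ApoE knockout replicates 2, 3 and 4, the arrays with the highest mitotic means, while the erythroid precursor means of all ApoE knockout aortas lie above those of all double knockout aortas.

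Nusap1 and Ube2c had the largest changes of the list, and in both every ApoE knockout aorta, replicates 1 and 5 included, lay well above every double knockout aorta. Nusap1 encodes a protein that bundles microtubules of the mitotic spindle. Its log2 values were 9.32, 10.09, 9.49, 9.64 and 9.38 in the ApoE knockout and 7.18, 7.69, 6.84, 7.10 and 7.16 in the double knockout. The groups were far apart, a 5.24-fold decrease (log2 change -2.39, SE 0.17, limma adjusted p = 1.4e-05). Ube2c encodes the ubiquitin-conjugating enzyme that works with the anaphase-promoting complex to destroy cyclin B. Its values were 9.37, 9.87, 9.37, 9.43 and 9.57 against 7.66, 7.71, 6.60, 7.09 and 7.59, a 4.57-fold decrease (log2 change -2.19, SE 0.20, limma adjusted p = 7.1e-05). Without ApoE knockout replicates 2, 3 and 4 the changes were -2.16 and -2.14, and these were the 2 members still called (limma adjusted p = 0.0019 and 0.010), where 1.2% of all genes were called lower and 4.25% higher.

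Several marker lists also separated the groups without overlap. The mean of 10 measured erythroid precursor markers of 12 listed was between 6.51 and 6.94 in the ApoE knockout and between 5.61 and 5.84 in the double knockout. Of the 10, 6 were lower, and all 6 were also called without ApoE knockout replicates 2, 3 and 4. Slc4a1, the anion exchanger of the red cell membrane, fell by 3.07 on the log2 scale, Tspo2 by 2.00, Rhag, of the Rh complex of the red cell membrane, by 1.61 and Car1, a carbonic anhydrase, by 0.86. The double knockout means of Tspo2, Rhag and Car1 were below 5.80. Gata1 and Klf1, transcription factors of red cell precursors, had means below 5.80 in both groups, while those of Epor, the erythropoietin receptor, were above it and Epor was not called. Platelet markers, 8 measured of 10 listed, had array means of 8.82 to 9.30 against 7.41 to 7.96, B cell markers of 6.43 to 7.06 against 5.59 to 6.08, mast cell markers of 6.47 to 7.24 against 5.87 to 6.28, and neutrophil markers of 6.43 to 7.56 against 5.91 to 6.24. The part of any of these cells in the Nusap1 and Ube2c values was not tested.

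The mitotic cyclins and the proliferation marker formed the next group. Mki67, a protein that coats mitotic chromosomes and marks cycling cells, was at 7.82, 9.19, 8.44, 8.50 and 7.93 in the ApoE knockout and at 7.19, 7.88, 6.49, 6.90 and 7.35 in the double knockout. Its groups overlapped only between ApoE knockout replicate 1 and double knockout replicate 2. The change was -1.21 (SE 0.29, limma adjusted p = 0.0095). Ccnb2, a B-type cyclin that drives entry into mitosis, was at 7.69, 9.09, 8.65, 8.32 and 7.73 against 7.37, 7.64, 6.49, 7.10 and 7.04. The groups did not overlap, yet the gap between the lowest ApoE knockout and the highest double knockout aorta was narrow (change -1.17, SE 0.28, limma adjusted p = 0.010). Ccna2, the A-type cyclin of S phase and G2, was at 7.97, 9.27, 8.57, 8.52 and 8.02 against 7.56, 8.15, 6.64, 7.28 and 7.34, with a change of -1.08 (SE 0.29, limma adjusted p = 0.017). Without ApoE knockout replicates 2, 3 and 4 the changes of Mki67, Ccnb2 and Ccna2 were -0.71, -0.58 and -0.60, and none was called (adjusted p = 0.19, 0.20 and 0.28). Cdk1, the kinase partner of these cyclins, had values of 6.51 to 7.64 in ApoE knockout and 6.35 to 7.47 in double knockout aortas, and its change of -0.34 (SE 0.24) was not called.

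**Figure D3:**
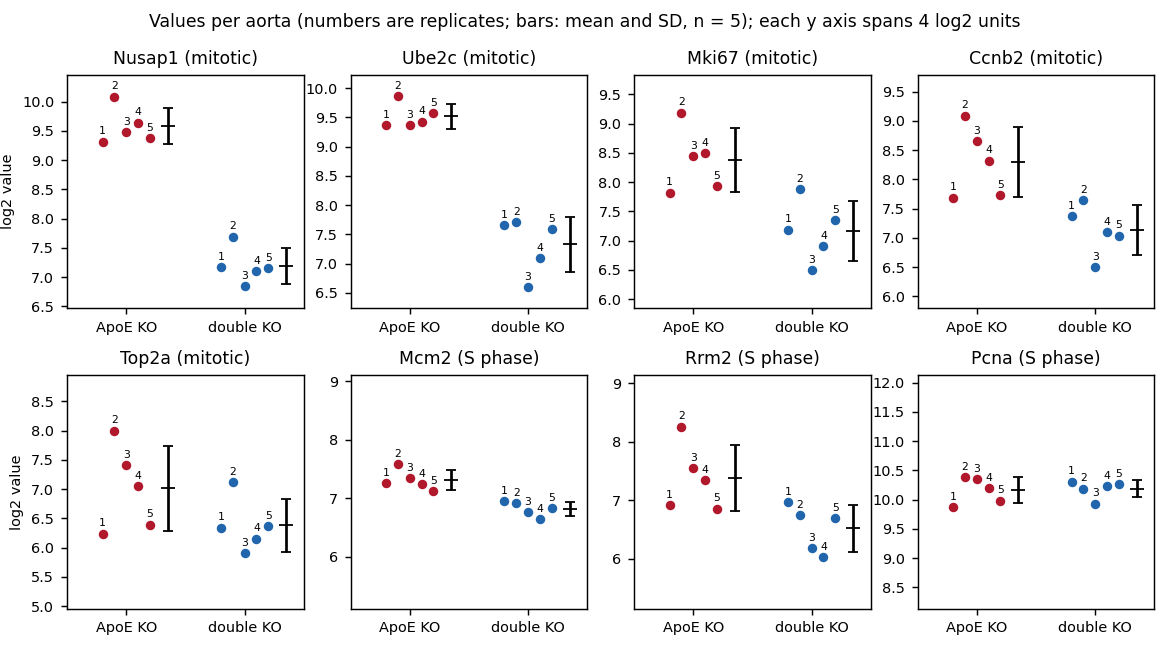
Log2 values of 8 members in the 5 ApoE knockout aortas (red) and the 5 double knockout aortas (blue), numbered by replicate, with the mean and SD of each group in black. Nusap1 and Ube2c separate the groups by a wide gap, and the groups of Pcna overlap fully. ApoE knockout replicates 2, 3 and 4 lie above 1 and 5 in Nusap1, Mki67, Ccnb2, Top2a, Rrm2 and Pcna.

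Kif23 encodes a motor of the central spindle needed to split the daughter cells. The values were 7.40, 8.21, 7.58, 7.62 and 7.44 in the ApoE knockout and 6.44, 7.25, 6.51, 6.81 and 6.59 in the double knockout, where no aorta reached the other group. The decrease was 1.90-fold (log2 change -0.93, SE 0.18, limma adjusted p = 0.0040). Without ApoE knockout replicates 2, 3 and 4 it was -0.70 and not called (limma adjusted p = 0.083). Tpx2, which activates Aurora A on spindle microtubules, was at 6.60, 7.13, 7.06, 6.72 and 6.61 against 6.55, 6.72, 6.12, 6.15 and 6.30, a change of -0.45 (SE 0.15, limma adjusted p = 0.036) with overlapping groups. It was -0.23 without ApoE knockout replicates 2, 3 and 4 and not called (limma adjusted p = 0.42). Kif11, the motor that separates the spindle poles, had a wide spread in the ApoE knockout, from 6.16 in replicate 5 to 7.89 in replicate 2, against 5.77 to 6.93 in the double knockout. Its change was -0.53 (SE 0.33, limma adjusted p = 0.24), and 0.24 without ApoE knockout replicates 2, 3 and 4. Kif20a and Prc1, which work with Kif23 at the central spindle, were not called, with changes of -0.10 and -0.17.

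Among the checkpoint, chromosomal passenger and kinase genes 3 were called. Bub1b, the checkpoint protein BubR1 that delays anaphase, was at 6.17, 7.09, 6.55, 6.47 and 6.41 in the ApoE knockout and at 6.21, 6.32, 5.76, 5.83 and 5.97 in the double knockout. ApoE knockout replicate 1 lay within the double knockout range, and the change was -0.52 (SE 0.16, limma adjusted p = 0.032). Birc5, the chromosomal passenger survivin, was at 5.23, 6.37, 5.75, 5.67 and 5.44 against 5.44, 5.30, 4.61, 5.06 and 5.05. Both of its means were below 5.80, and the change was -0.60 (SE 0.21, limma adjusted p = 0.048). Melk, a kinase of dividing cells, also had both means below that level, with values of 5.52, 6.11, 5.68, 5.51 and 5.55 against 5.34, 5.39, 5.19, 5.07 and 5.08. Its groups did not overlap, and the change was -0.46 (SE 0.12, limma adjusted p = 0.016). Without ApoE knockout replicates 2, 3 and 4 the changes of Bub1b, Birc5 and Melk were -0.27, -0.24 and -0.32, and none was called (limma adjusted p = 0.34, 0.49 and 0.15). The calls of Bub1b, Tpx2 and Birc5 were each lost without any one of ApoE knockout replicates 2, 3 and 4 or double knockout replicates 3, 4 and 5, with adjusted p up to 0.075, 0.085 and 0.11.

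The remaining mitotic members were not called. Ndc80, which ties the kinetochore to microtubules, came closest (-0.62, SE 0.22, limma adjusted p = 0.053), followed by Aurkb, the Aurora kinase of the passenger complex (-0.39, SE 0.15, limma adjusted p = 0.070). Top2a, the topoisomerase that untangles sister chromosomes, had the widest range of all members in the ApoE knockout, 6.24, 8.00, 7.41, 7.06 and 6.40, against 6.34, 7.13, 5.91, 6.16 and 6.36 in the double knockout. Its change was -0.64 (SE 0.32, limma adjusted p = 0.15) and 0.063 without ApoE knockout replicates 2, 3 and 4. The changes of Plk1, Cenpe, Ttk, Foxm1, Cenpf, Bub1, Cdc20, Aurka and Cdca8 lay between -0.30 (Plk1, the polo kinase of mitosis) and 0.011 (Cdca8, another passenger protein, at -0.20 after quantile normalization and -0.19 after centring). Foxm1, the transcription factor that turns on many of these genes, was at -0.19 (SE 0.14). Bub1 and Ttk had both means below 5.80, and Ndc80, Cenpe and Foxm1 had 1.

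Among the S phase members the MCM helicase subunits did not move as one. Mcm2 was at 7.26, 7.58, 7.34, 7.25 and 7.12 in the ApoE knockout and at 6.95, 6.92, 6.76, 6.64 and 6.83 in the double knockout. The groups did not overlap, and the change was -0.49 (SE 0.095, limma adjusted p = 0.0038), or -0.37 without ApoE knockout replicates 2, 3 and 4 (adjusted p = 0.093). Mcm4 was at 8.37, 8.74, 8.63, 8.57 and 8.50 against 8.40, 8.42, 8.01, 8.33 and 8.28, just short of the threshold (-0.27, SE 0.10, limma adjusted p = 0.051). Mcm5 and Mcm7 were at -0.34 (SE 0.15) and -0.22 (SE 0.14), not called. Mcm6 was at 0.16 (SE 0.10), also not called, and at -0.045 after centring.

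The enzymes that supply nucleotides gave 1 call. Rrm2, the regulated subunit of ribonucleotide reductase, was at 6.92, 8.26, 7.55, 7.34 and 6.85 in the ApoE knockout and at 6.96, 6.75, 6.17, 6.03 and 6.69 in the double knockout. ApoE knockout replicates 1 and 5 lay within the double knockout range, and the change was -0.86 (SE 0.26, limma adjusted p = 0.030). A second probe set of the gene, far dimmer, changed by -0.18 (SE 0.13). The Rrm2 call was lost without any one of ApoE knockout replicates 2, 3 and 4 or double knockout replicates 3 and 4 (adjusted p up to 0.071), and the change was -0.36 without those 3 ApoE knockout arrays together. Rrm1, the partner subunit, was at -0.16 (SE 0.10), and Tyms, which makes thymidylate, at -0.12 (SE 0.11), neither called.

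E2f1, Ccne1, Pcna and Gins1 were not called. E2f1, an activating E2F factor, was at 7.18, 7.35, 7.60, 7.25 and 7.29 in the ApoE knockout and at 7.41, 7.52, 7.13, 7.18 and 7.30 in the double knockout, fully overlapping (change -0.028, SE 0.10, and -0.23 after centring). Ccne1, cyclin E, was at 0.039 (SE 0.094) and turned to -0.11 after quantile normalization and -0.17 after centring. Pcna, the clamp that holds polymerase on DNA, was at 9.88, 10.39, 10.35, 10.19 and 9.98 against 10.31, 10.19, 9.93, 10.22 and 10.27, a change of 0.026 (SE 0.11), and -0.18 after centring. Pcna, Tyms and Ccnb2 have pseudogenes in the reference gene table, so their signal may be shared. Gins1, of the helicase complex, had both means below 5.80 and was at -0.10 (SE 0.13), or -0.31 after centring and -0.36 after quantile normalization.

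Set side by side, the mitotic members were lower relative to the S phase members in the double knockout. In each array the mean mitotic level minus the mean S phase level was -0.93, -0.48, -0.69, -0.79 and -0.87 in the ApoE knockout and -1.11, -0.89, -1.31, -1.21 and -1.22 in the double knockout. Double knockout replicate 2 alone reached the ApoE knockout range. The median change of the mitotic members was lower by 0.28 than that of the S phase members, which is given without a test since the lists were chosen with results of these data known. The further genes described below did not show this contrast. Their median change was -0.16 for 60 mitotic and -0.18 for 46 S phase genes. Without ApoE knockout replicates 2, 3 and 4 the median was -0.033 for the mitotic and 0.022 for the S phase members, against 0.086 for all genes, and 2 of 38 members were called. With only 2 ApoE knockout arrays left, that fit also called fewer of all genes. The arrays left out had the 3 highest ApoE knockout values of both means and of their difference. Leaving them out therefore had to make the mean changes less negative, so that fit cannot serve as a check.

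**Figure D4:**
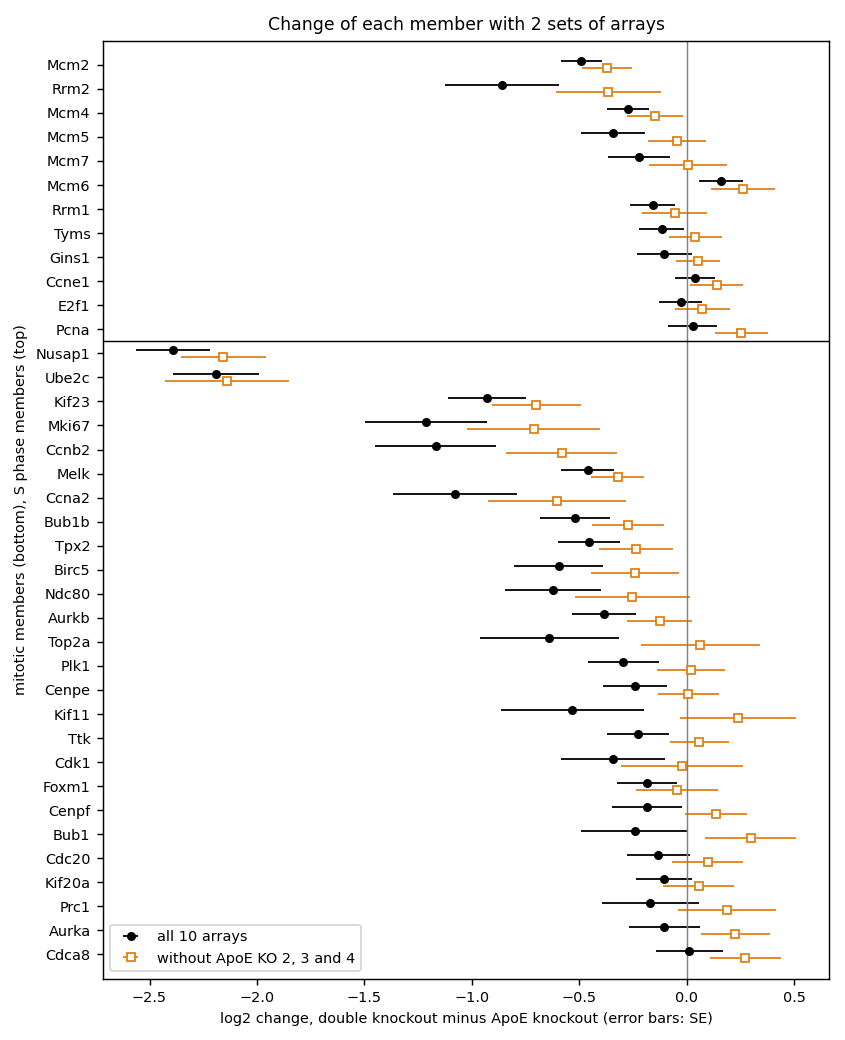
Log2 change of each measured member, double knockout minus ApoE knockout, with its SE, from all 10 arrays (black) and without ApoE knockout replicates 2, 3 and 4 (orange), S phase members above and mitotic members below the line. Nusap1 and Ube2c stay at -2.16 and -2.14 without those arrays, while Top2a and Kif11 move from -0.64 and -0.53 to 0.063 and 0.24.

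Of 46 further S phase genes measured of 50 listed, 6 were lower and 2 higher (median change -0.18), beside 7.53% and 22.8% of all genes. The counts were 1 and 0 without ApoE knockout replicates 2, 3 and 4, where 1.2% of all genes were lower and 4.25% higher. E2f2, an activating E2F factor, was 3.22-fold lower (log2 change -1.69, SE 0.14, limma adjusted p = 3.6e-05), to a double knockout mean of 5.68 below the background level. Pold1, the catalytic subunit of polymerase delta, was at -0.30 (limma adjusted p = 0.0074). The 2 higher genes, Clspn and Fen1, had both means below the background level. Of 60 further mitotic genes, 12 were lower and 3 higher (median -0.16). Without those arrays 2 of the 60 were lower and 3 higher (median 0.052), beside the same 1.2% and 4.25% of all genes. Knl1, the kinetochore scaffold, was 3.83-fold lower (limma adjusted p = 0.00092) and Cdc25b, the phosphatase that activates Cdk1, 2.08-fold lower (limma adjusted p = 0.00022). Higher were Cenpm, a centromere protein (1.41-fold), Anln, the actin-binding anillin of the cleavage furrow (1.47-fold), and Pimreg (1.28-fold, from a mean of 5.74). Anln was not called without those arrays (limma adjusted p = 0.14), while Cenpm and Pimreg were, with changes of 0.60 and 0.57 (limma adjusted p = 0.025 and 0.046).

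The regulators of G1 and the inhibitors were examined last. Of 24 G1 cyclins, kinases and E2F partners, 5 were lower and 1 higher (median -0.070), beside 7.53% and 22.8% of all genes. The higher one, Mycn, had both means below the background level. With ApoE knockout replicates 2, 3 and 4 left out 1 of the 24 was lower, where 1.2% of all genes were. Tfdp2, a partner that E2F factors need to bind DNA, was 3.11-fold lower (log2 change -1.64, SE 0.13, limma adjusted p = 3.7e-05), Lin54, the DNA-binding subunit of MuvB, 1.44-fold lower (limma adjusted p = 0.0083), and Ccnd3, a D-type cyclin of G1, was 1.24-fold lower (limma adjusted p = 0.016). Of 14 cell cycle inhibitors measured of 17 listed, 1 was lower, Cdkn3, a phosphatase that acts on cyclin-dependent kinases (2.24-fold, limma adjusted p = 0.00046, to a double knockout mean of 5.74 below the background level), and none was higher, also at an unadjusted p of 0.05 by limma. That share is near the 7.53% of all genes. At an unadjusted p of 0.05 by limma 3 of the 14 were lower, against 2650 of 22180 genes. The median change of the inhibitors was -0.14, against 0.098 for all genes. Their array means were 8.30 to 8.42 in the ApoE knockout and 8.10 to 8.21 in the double knockout, without overlap. E2f2, Tfdp2, Knl1, Cdc25b and Cdkn3 were also called without ApoE knockout replicates 2, 3 and 4, with changes of -1.60, -1.60, -1.69, -1.10 and -1.05 (limma adjusted p from 0.00089 to 0.022), as were Nusap1 and Ube2c.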

How the data were processed

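Affymetrix Mouse Gene 2.0 ST arrays measured the RNA of 10 whole aortas, 1 array each, per the labels. The values the authors deposited are log2 numbers, 1 per probe set and array, with the base of the log inferred from their range. The submitters' processing notes name limma without a role, and the background correction and normalization were not given in the sources used here.

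Of 41345 probe sets, 23521 had 1 gene symbol in the platform annotation, 1814 had several and 16010 are unnamed here. The probe set with the highest mean was kept, giving 22180 genes, with no filter. Genes were tested with limma 3.58.1 in R 4.3.3 (lmFit, eBayes, group as the only term, two-sided, Benjamini-Hochberg over all genes, threshold 0.05). SE is on the log2 scale. On simulated data of this comparison with 22180 genes, 95% of genes changed by 1 and 100% of genes changed by 2 on the log2 scale were recovered, with 18 false calls. The simulation changed 200 genes and drew each gene independently, with no shift shared by the genes of an array. It therefore does not give the error rate of these arrays. Figures were drawn with matplotlib 3.10.9.

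The members and lists were chosen with earlier results of these data known. Values per array are given for called members and for the 3 with the smallest p of each group of members, and for Top2a, E2f1 and Pcna, chosen after their values were seen. From other lists up to 4 called genes with the smallest p are named. Pimreg and the thymocyte, thymic epithelium and further red cell markers were named after their values were seen. Marker lists of 21 cell types were examined. Alternatives covered normalization, filters, the probe set rule, the test and leaving out arrays.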

Additional observations from a re-analysis of the deposited data

Results flagged for a closer look

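In 4 of 80 groups of 5 arrays examined, 1 aorta stood far from the others by Dixon's ratio, its gap to the nearest array divided by the range of its group. Chance alone gives about 1 in 20. In the ApoE knockout replicate 2 was the outlying high array for Gins1 (ratio 0.829, 5.82 against 5.22 in the next), Kif23 (ratio 0.734, 8.21 against 7.62) and Melk (ratio 0.715, 6.11 against 5.68). In the double knockout replicate 3 was high for Ccne1 (ratio 0.743, 6.72 against 6.49), a gene that was not called.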

How the results depend on the processing

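No member was higher under any alternative run. The number lower, 12 with all arrays, was 22 after centring each array on its median, where 25.4% of all genes were lower in place of 7.53%, 17 after quantile normalization, where 11.2% were, 6 by the Welch test per gene, 5 at an adjusted p of 0.01 and 8 to 15 with 1 array left out. Shares of all genes are not given for the Welch test, the threshold of 0.01, 1 array left out or the block below. Those counts alone therefore do not show a loss particular to the members. The number lower was 2 without ApoE knockout replicates 2, 3 and 4, where 1.2% of all genes were lower. These are the ApoE knockout arrays with the highest mitotic and S phase means. In that fit the difference between the mitotic and S phase medians was -0.055 in place of -0.28. With 1 array left out that difference ran from -0.33 to -0.19. With the replicate number as a block 14 members were lower. The labels do not say that the numbers pair the aortas, and the values do not settle it: same-numbered arrays correlated at 0.26, 0.20, -0.13, 0.060 and 0.14, and 3 of 5 matched best with their own number.

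Only members not called changed sign. Centring lowered the change of every gene by the same amount, since the double knockout arrays had the higher medians. Leaving out ApoE knockout replicates 2, 3 and 4 had to make the mean changes less negative, as given above. The cause of the other sign changes was not tested. After quantile normalization Ccne1 was at -0.11 and Cdca8 at -0.20. After centring Ccne1 was at -0.17, Cdca8 at -0.19, Mcm6 at -0.045 and Pcna at -0.18. With array weights Cdca8 was at -0.075 and Pcna at -0.011. Without ApoE knockout replicates 2, 3 and 4 the changes were 0.23 for Aurka, 0.30 for Bub1, 0.098 for Cdc20, 0.0069 for Cenpe, 0.14 for Cenpf, 0.073 for E2f1, 0.052 for Gins1, 0.24 for Kif11, 0.055 for Kif20a, 0.0041 for Mcm7, 0.020 for Plk1, 0.19 for Prc1, 0.063 for Top2a, 0.059 for Ttk and 0.040 for Tyms. With 1 array left out the changes ran from -0.017 to 0.097 for Ccne1, from -0.074 to 0.11 for Cdca8, from -0.081 to 0.038 for E2f1, from -0.15 to 0.028 for Gins1 and from -0.044 to 0.090 for Pcna. Signal near the background level limits Gins1, Melk, Birc5, Ttk and Bub1.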
